A study of Tursiops truncatus with 17 samples.

Results

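Collagen IV, the nidogens, agrin and collagen XVIII were followed in the cerebral cortex of bottlenose dolphins (Tursiops truncatus). The 10 genes, COL4A1 to COL4A6, NID1, NID2, AGRN and COL18A1, were found by symbol among 21265 gene rows, with 1 row for each. Messenger RNA was sequenced from frozen archived necropsy cortex of 17 dolphins, 9 collected in a bloom season and 8 in a non-bloom season, with 1 library from each dolphin. All animals carry the genotype label WT, and bloom and non-bloom are the season names given in the labels, which state no age, sex, date, exposure or sequencing batch; season and any batch aligned with it cannot be told apart. Dolphins are numbered within their season in the order of deposition.

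Basement membranes are thin protein sheets that wrap the vessels of the brain and line its surface under the pia. Collagen IV chains join in groups into a network that gives the sheet its strength, laminins form another network, and nidogens and the heparan sulfate proteoglycans perlecan and agrin tie them together. In the brain the sheet is made mainly by endothelial cells, pericytes and astrocyte endfeet. In people, mutations of COL4A1 and COL4A2 cause disease of small brain vessels.

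Libraries held between 7680050 and 15635292 reads. Transcripts of the mitochondrial genome took 77.2%, 57.0% and 33.5% of the reads of bloom 9, 5 and 6 and at most 22.1% in the other libraries. Those dolphins had 1753299, 4039857 and 6719605 reads on all other genes, against at least 9945880 in each other library. Values are the deposited normalised values, equal to CPM with library sizes scaled between libraries. A count of 3 reads, the floor used here for counting error, equals a value of 0.158 to 0.597 in 16 libraries and 1.71 in bloom 9. No transcript lengths were at hand, so levels are compared between dolphins and never between genes. Neuronal, astrocyte, oligodendrocyte and endothelial markers were read in both seasons, and the summed choroid plexus markers stayed between 4.71 and 27.1.

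Of the 10 genes, 7 passed the filter on low counts and were tested for season: COL4A1, COL4A2, COL4A3, NID1, NID2, AGRN and COL18A1. All 7 had positive log2 changes in the bloom season, with a median of 0.71, against -0.0034 over all 13548 genes tested, of which 49.7% were positive. In a fit with no low filter 7 of the 10 were positive. The others, COL4A4, COL4A5 and COL4A6, had few reads and were at -0.036, -0.059 and -0.20. Some of these genes moved together from dolphin to dolphin, so their signs are not independent. None of the 7 passed at a Benjamini-Hochberg adjusted p under 0.05 (limma), where 9.16% of all genes passed, 4.47% higher and 4.69% lower. There were 2 at an unadjusted p under 0.05, NID2 and COL18A1, both higher, and 16.4% of all genes were higher and 19.1% lower at that level. edgeR also called 0 of the 7, where it called 8.29% of all genes (6.10% higher). By its unadjusted p, 5 of the 7 were higher at under 0.05, against 20.9% of all genes. DESeq2 called 4 of the 7, COL4A1, COL4A2, NID2 and COL18A1, in a fit that called 23.4% of all genes. Without bloom 5, 6 and 9, limma called 0 of the 7 and 2.34% of all genes, 1.68% higher. The seasons overlapped in all 10 genes, and 0.657% of all tested genes had seasons that did not overlap. Log2 changes and their SE are on the log2(value + 1) scale unless a count tool is named, and that scale understates changes of low genes.

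**Figure D1:**
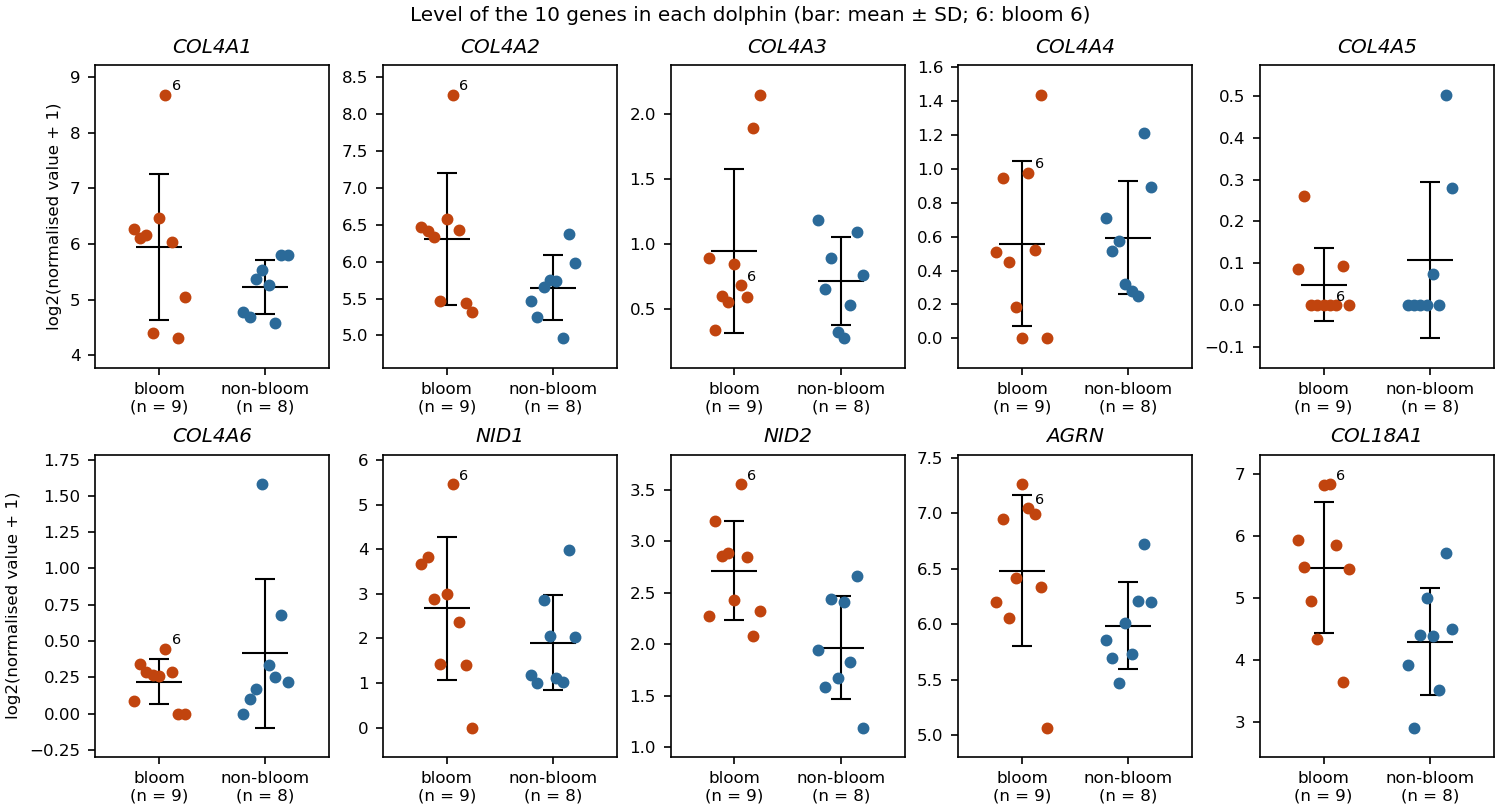
Level of each of the 10 genes, as log2(normalised value + 1), in the 9 bloom dolphins (left) and the 8 non-bloom dolphins (right); each point is 1 dolphin and bars are mean ± SD of the plotted values, with bloom 6 marked. COL4A1, COL4A2, NID1, NID2 and COL18A1 reach their highest value in bloom 6, and the seasons overlap in every panel.

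COL4A1 and COL4A2 encode the chains of the collagen IV molecule found in nearly all basement membranes. Their genes lie on GeneScaffold_3207, COL4A1 (ENSTTRG00000006193) from 28956 to 176304 and COL4A2 (ENSTTRG00000006268) from 177221 to 357060, 916 bases apart with no gene listed between them. Coordinates are as listed in the files, on a genome build that the sources used here do not name. In mammals the pair stands head to head and is read from a shared promoter.

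COL4A1 had a lowest value of 18.8, a median of 68.5 and a highest value of 411 in bloom dolphins, against 23.1, 39.2 and 55.3 in non-bloom dolphins. The bloom dolphins lay on both sides of the others: 6 of the 9 were above every non-bloom dolphin, and bloom 4 and bloom 8, at 20.1 and 18.8, were below every one of them. The mean was 94.4 ± 122 in bloom dolphins (SD, n = 9) and 38.4 ± 12.9 in non-bloom dolphins (SD, n = 8). The log2 change was 0.71 (SE 0.45, limma adjusted p = 0.251).

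The COL4A1 value of bloom 6 rested on 3396 reads and was 6.16 times the median of the other bloom dolphins. The next value in the series was 87.4, in bloom 5. Without bloom 6 the bloom mean was 54.8 ± 26.9 (SD, n = 8) and the log2 change 0.37 (SE 0.32, limma adjusted p = 0.443). DESeq2 gave 1.30 (SE 0.48, adjusted p = 0.0364) with all dolphins.

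COL4A2 had a lowest value of 38.9, a median of 84.4 and a highest value of 305 in bloom dolphins, against 30.2, 50.8 and 82.2 in non-bloom dolphins. Again bloom 6 was highest, 5 of the 9 bloom dolphins exceeded every non-bloom dolphin, and none fell below the non-bloom range. The mean was 95.6 ± 81.5 in bloom dolphins (SD, n = 9) and 51.2 ± 16.0 in non-bloom dolphins (SD, n = 8), a log2 change of 0.65 (SE 0.32, limma adjusted p = 0.150). It was 0.41 (SE 0.23, adjusted p = 0.240) without bloom 6.

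The levels of COL4A1 and COL4A2 moved together from dolphin to dolphin. Over all 17 dolphins Pearson's r was 0.968 and Spearman's rho 0.936 on the log2 scale (permutation p = 1e-05 for each, the smallest the 100000 resamples can give, adjusted p = 4e-05 over 4 pairs). Without bloom 6 and bloom 8, the animals farthest from the median of COL4A1, r was 0.942, and without bloom 5, 6 and 9 it was 0.920. Within each season r was 0.978 in bloom dolphins and 0.928 in non-bloom dolphins (exact permutation p = 0.00132 and 9.92e-05, adjusted p = 0.00528 and 0.000397). The log2 ratio of COL4A2 to COL4A1 was 0.36 ± 0.48 in bloom dolphins and 0.42 ± 0.18 in non-bloom dolphins (SD), a difference of -0.061 (two-sided exact permutation test, 24310 splits of the dolphins, p = 0.753, and adjusted p = 0.975 for the 4 ratios). No change in the balance of the chains between the seasons was detected, though the ratio spread more widely among bloom dolphins.

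**Figure D2:**
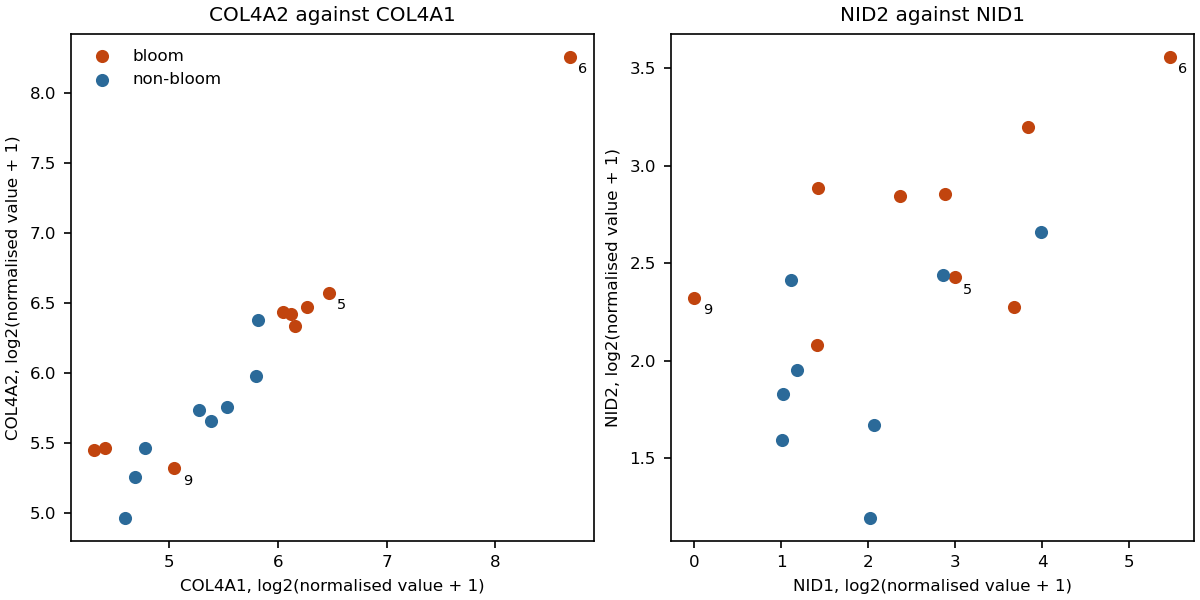
COL4A2 against COL4A1 (left) and NID2 against NID1 (right), both axes as log2(normalised value + 1), with 1 point for each of the 17 dolphins and bloom 5, 6 and 9 marked. The collagen IV pair follows a narrow line (r = 0.968) with bloom 6 at its far end, while the nidogen pair scatters (r = 0.610).

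The other collagen IV chains were close to the limit of detection. COL4A3 and COL4A4, which encode some of the chains of the collagen IV of the kidney filter, lie on GeneScaffold_1730 with a gap of 18029 bases. COL4A3 had 95 reads in all bloom libraries together and 85 in all non-bloom libraries, and COL4A4 had 68 and 71. COL4A3 ran from 0.264 to 3.43 in bloom dolphins, with a median of 0.606, and from 0.211 to 1.27 in non-bloom dolphins, with a median of 0.636. Its 2 highest values were those of bloom 9, where 3.43 stands for 6 reads, and bloom 8, where 2.70 stands for 41 reads. The log2 change was 0.23 (SE 0.24, limma adjusted p = 0.494).

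COL4A4 did not pass the filter; in a fit with no low filter its log2 change was -0.036 (SE 0.19, limma adjusted p = 0.912). It had 0 reads in bloom 5 and bloom 9, and its highest values were 1.71 in bloom 8 among bloom dolphins and 1.32 in non-bloom 7 among non-bloom dolphins. No correlation of COL4A3 with COL4A4 was detected over all 17 dolphins (r = 0.194, rho = 0.285, permutation adjusted p = 0.532 and 0.356). Without the animals farthest from the median of COL4A3, bloom 8 and bloom 9, r was 0.356. Without bloom 5, 6 and 9 it was 0.741 (permutation adjusted p = 0.00588). Within the seasons r was 0.028 in bloom dolphins and 0.784 in non-bloom dolphins (exact permutation adjusted p = 0.996 and 0.0407). These are counts of at most 41 reads a library, and the relation rests on which libraries are kept.

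COL4A5 and COL4A6 encode the chains of a collagen IV molecule known from smooth muscle and kidney basement membranes. They lie on GeneScaffold_2667 with a gap of 1966 bases. COL4A5 was almost unread: 5 reads in 3 of 9 bloom libraries and 12 reads in 3 of 8 non-bloom libraries, of which 7 were in non-bloom 7. COL4A6 had 18 reads in bloom libraries and 56 in non-bloom libraries, of which 32 were in non-bloom 4 alone. Both fell outside the filter, and a fit with no low filter gave log2 changes of -0.059 (SE 0.067) for COL4A5 and -0.20 (SE 0.17) for COL4A6 (limma adjusted p = 0.573 and 0.441). No correlation between them was detected (r = 0.139, rho = 0.101, permutation adjusted p = 0.532 and 0.701; r = -0.078 without non-bloom 7 and non-bloom 8, the animals farthest from the median of COL4A5). Within the seasons r was -0.0034 in bloom dolphins and 0.102 in non-bloom dolphins. Whether the gene models of these rows hold the exons read in cortex was not tested, so their low values are low counts on the rows and no measure of the protein.

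Nidogens join the laminin network to collagen IV. NID1 (GeneScaffold_957, 21946 to 115444) had a lowest value of 0, a median of 6.38 and a highest value of 43.3 in bloom dolphins, against 1.01, 2.16 and 14.9 in non-bloom dolphins. The value of 0 was that of bloom 9, whose depth allows a value of up to 1.71, and the highest was that of bloom 6, at 8.22 times the median of the other bloom dolphins. Of the bloom dolphins, bloom 6 lay above the non-bloom range, and bloom 9 cannot be placed against it at its depth. The mean was 9.91 ± 13.3 in bloom dolphins (SD, n = 9) and 3.98 ± 4.76 in non-bloom dolphins (SD, n = 8), a log2 change of 0.77 (SE 0.61, limma adjusted p = 0.363). Without bloom 6 the change was 0.42 (SE 0.54, adjusted p = 0.612), and without bloom 9 it was 1.10 (SE 0.55, adjusted p = 0.157).

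NID2 (GeneScaffold_3173, 87362 to 164758) had the smallest p of the 7 genes tested. Its lowest value, median and highest value were 3.23, 6.19 and 10.8 in bloom dolphins, against 1.29, 2.70 and 5.32 in non-bloom dolphins. All 9 bloom dolphins lay above the non-bloom median and 5 lay above every non-bloom dolphin. The mean was 5.91 ± 2.42 in bloom dolphins (SD, n = 9) and 3.12 ± 1.41 in non-bloom dolphins (SD, n = 8), from 7 to 124 reads a library in bloom and 24 to 89 in non-bloom. The log2 change of 0.75 (SE 0.23) missed the threshold with limma adjusted p = 0.0503, and edgeR gave adjusted p = 0.0532. It passed with other scalings, with a stricter filter and by DESeq2 (adjusted p from 0.0171 to 0.0498). It missed with no low filter and with a pseudocount of 0.1 (limma adjusted p = 0.0699 and 0.0544). It also missed with the endothelial and pan-neuronal covariates and without bloom 5, 6 and 9 (limma adjusted p = 0.0952, 0.502 and 0.0972). Few genes passed in most of the fits where NID2 missed. They called 560 of 17542 genes with no low filter and 927 of 13548 with a pseudocount of 0.1. With the 2 covariates they called 251 and 3 of 13548, and without bloom 5, 6 and 9 they called 320 of 13663. NID2 passed in 4 of 17 fits that left out 1 library, those without bloom 1, 4, 8 or 9. Those 4 fits called 2895 of 13489, 2316 of 13525, 2690 of 13502 and 1118 of 13531 genes. Over those 17 fits the change stayed between 0.64 and 0.85 and the adjusted p between 0.0282 and 0.0997.

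For the nidogens, which rest on 0 to 357 reads a library for NID1 and 7 to 124 for NID2, r over 17 dolphins was 0.610 and rho 0.618 (permutation adjusted p = 0.0175 and 0.0195), and without bloom 6 and bloom 9, the farthest from the median of NID1, r was 0.523 and rho 0.586 (permutation adjusted p = 0.0946 and 0.0494). Within the seasons r was 0.649 in bloom dolphins and 0.502 in non-bloom dolphins (exact permutation adjusted p = 0.115 and 0.278). The log2 ratio of NID2 to NID1 was 0.044 ± 1.35 in bloom dolphins and 0.062 ± 0.93 in non-bloom dolphins (SD), a difference of -0.018 (exact permutation p = 0.975, adjusted p = 0.975). This difference was far smaller than the spread between animals. The ratio of bloom 9, 2.32, set 7 reads of NID2 against 0 of NID1, and without bloom 9 the difference was -0.30.

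Agrin is a heparan sulfate proteoglycan of vascular basement membranes, also known for gathering acetylcholine receptors at the nerve-muscle synapse. AGRN (GeneScaffold_3233, 15769 to 47608) had a lowest value of 32.6, a median of 84.7 and a highest value of 153 in bloom dolphins, against 43.3, 60.2 and 105 in non-bloom dolphins. Of the bloom dolphins, 8 lay above the non-bloom median, 4 lay above every non-bloom dolphin, and bloom 9 lay below all of them, with 57 reads. The mean was 96.6 ± 38.8 in bloom dolphins (SD, n = 9) and 64.6 ± 19.3 in non-bloom dolphins (SD, n = 8), a log2 change of 0.50 (SE 0.26, limma adjusted p = 0.169). Without bloom 9 it was 0.67 (SE 0.20, adjusted p = 0.0485), in a fit that called 1118 of 13531 genes. Splice forms of agrin, which differ between neurons and vessels, are not resolved by a value per gene.

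COL18A1 encodes collagen XVIII, a basement membrane collagen with heparan sulfate chains whose end fragment is endostatin. Its row (GeneScaffold_3042, 280 to 50160) had a lowest value of 11.6, a median of 44.5 and a highest value of 114 in bloom dolphins, against 6.53, 19.99 and 52.0 in non-bloom dolphins. The top values, 114 in bloom 6 and 112 in bloom 5, stood close together, and 4 bloom dolphins exceeded the non-bloom range. The mean was 54.8 ± 36.8 in bloom dolphins (SD, n = 9) and 22.01 ± 14.3 in non-bloom dolphins (SD, n = 8). The log2 change was 1.19 (SE 0.43, limma adjusted p = 0.0701). The change passed in the fits without bloom 4 and without bloom 8 (adjusted p = 0.0430 and 0.0272). Those fits called 2316 of 13525 and 2690 of 13502 genes, against 1241 of 13548 with all dolphins. Without bloom 5, 6 and 9 it was 0.74 (SE 0.41, adjusted p = 0.297).

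Whether members changed by different amounts was tested on their log2 ratios. The ratio of COL18A1 to COL4A1 was -0.46 ± 0.73 in bloom dolphins and -0.93 ± 0.50 in non-bloom dolphins (SD), a difference of 0.48 (exact permutation p = 0.140, adjusted p = 0.560), and 0.65 without bloom 6 (exact permutation p = 0.0270, adjusted p = 0.108). That of AGRN to COL4A1 was 0.54 ± 1.15 in bloom dolphins and 0.76 ± 0.49 in non-bloom dolphins, a difference of -0.22 (exact permutation p = 0.642, adjusted p = 0.975). None of the 4 ratios tested differed between the seasons beyond the spread between dolphins, which does not show that the genes changed alike.

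**Figure D3:**
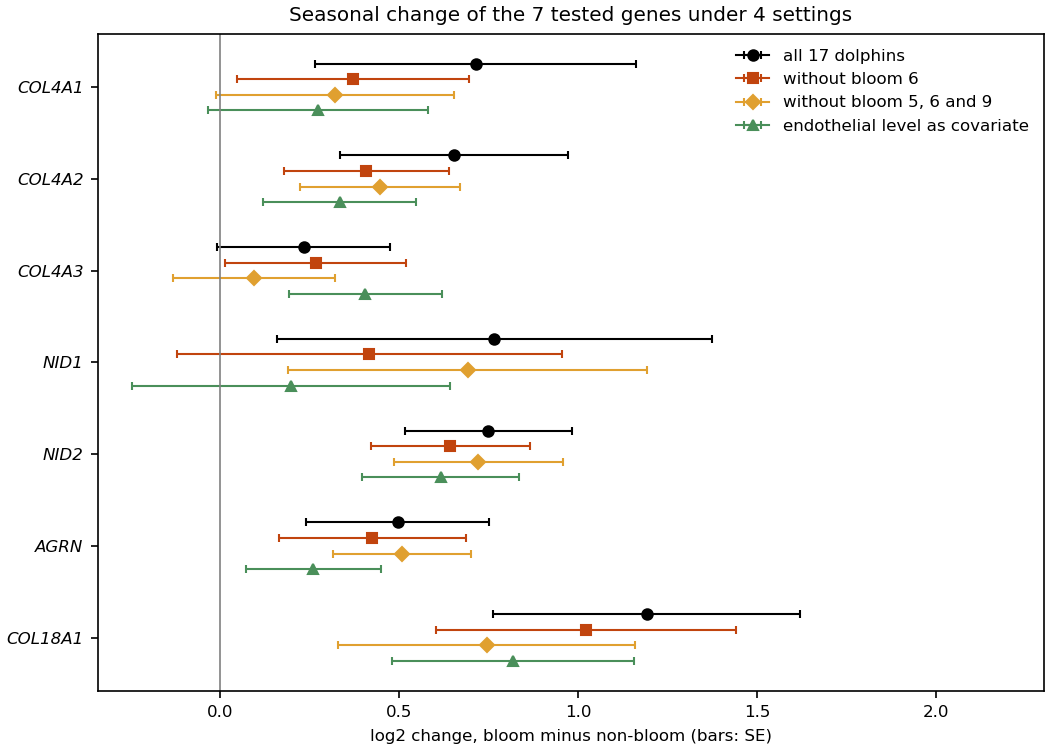
Log2 change, bloom minus non-bloom, of the 7 tested genes with all 17 dolphins, without bloom 6, without bloom 5, 6 and 9, and with the endothelial marker level as a covariate; bars are SE. COL4A1 drops to 0.37 without bloom 6 and to 0.27 with the covariate, while NID2 stays between 0.62 and 0.75.

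Summed markers of several cell types differed widely between dolphins. In bulk tissue, more cells of a type and more RNA per cell cannot be told apart. The summed level of 14 endothelial markers ran from 220 to 3201 in bloom dolphins, with a median of 1032, and from 390 to 1006 in non-bloom dolphins, with a median of 555. Bloom 6 held the highest endothelial sum, 3201, followed by bloom 5 with 2936, and bloom 4, 8 and 9 held the lowest of the series, 334, 308 and 220. Of the 14 markers 1 passed, where 9.16% of all genes did: the brain endothelial transporter gene SLCO1A2 (limma adjusted p = 0.0492), whose call was lost in 13 of 17 fits that left out 1 library. The median log2 change over the list was 0.52. The sum of 12 pericyte and smooth muscle markers ran from 61.9 to 271 in bloom dolphins and from 25.5 to 249 in non-bloom dolphins, and that of 11 meningeal fibroblast markers from 37.3 to 152 and from 16.6 to 146. Of these lists 1 gene each passed, KCNJ8 and SLC6A13, both higher in bloom, with list medians of 0.80 and 0.60 and calls lost in 9 and 5 of those 17 fits.

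Markers of other cell types differed too, and the counts passing stand against 9.16% of all tested genes. Each sum adds the values of its genes, so genes with high values weigh most in it. Among oligodendrocyte markers that was MBP, with a mean of 7141 in bloom dolphins. Among astrocyte markers it was ALDOC and GFAP, with means of 2032 and 1939 in bloom dolphins. The summed astrocyte markers ran from 1413 to 10253 in bloom dolphins and from 1812 to 3315 in non-bloom dolphins, and all 11 changes were positive with a median of 1.27 and 0 passing. The summed oligodendrocyte markers ran from 4504 to 19243 in bloom dolphins and from 1715 to 8150 in non-bloom dolphins, with 11 of 11 changes positive, a median of 0.66 and 2 passing, ERMN and MOG. The summed pan-neuronal markers ran from 2551 to 10409 in bloom dolphins and from 8727 to 13758 in non-bloom dolphins, with 11 of 11 changes negative, a median of -0.67 and 1 passing, SYT1. The summed microglia markers ran from 0.537 to 32.1 in bloom dolphins and from 1.91 to 280 in non-bloom dolphins, with 5 of 5 changes negative, a median of -1.43 and 0 passing. Beside its endothelial sum, bloom 6 had the highest oligodendrocyte sum of the series, the third highest astrocyte sum, 8815, and the second lowest pan-neuronal sum, 3607. The part of any cell type in the members' values was not tested beyond the covariate fits. None of the endothelial, pericyte, fibroblast or astrocyte markers in the files lacked reads in a season, and of the choroid plexus markers TTR had no read in bloom libraries.

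The marker level used as a covariate was the mean log2(value + 1) of the tested markers of a list, not their sum. With the endothelial marker level as a covariate, COL4A3 was at 0.41 (SE 0.21), above its 0.23 without it. The other log2 changes were 0.27 (SE 0.31) for COL4A1, 0.33 (SE 0.21) for COL4A2, 0.20 (SE 0.44) for NID1, 0.26 (SE 0.19) for AGRN, 0.62 (SE 0.22) for NID2 and 0.82 (SE 0.34) for COL18A1, with limma adjusted p from 0.0952 to 0.771 over the 7 genes. When the covariate was instead the level of pan-neuronal markers, COL4A1 and NID1 turned to -0.14 (SE 0.39) and -0.15 (SE 0.62), and the others were at 0.063 for COL4A2, 0.32 for COL4A3, 0.55 for NID2, 0.11 for AGRN and 0.36 for COL18A1, with limma adjusted p of at least 0.502 for all 7 genes. The endothelial and pan-neuronal fits called 251 and 3 of 13548 genes.

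**Figure D4:**
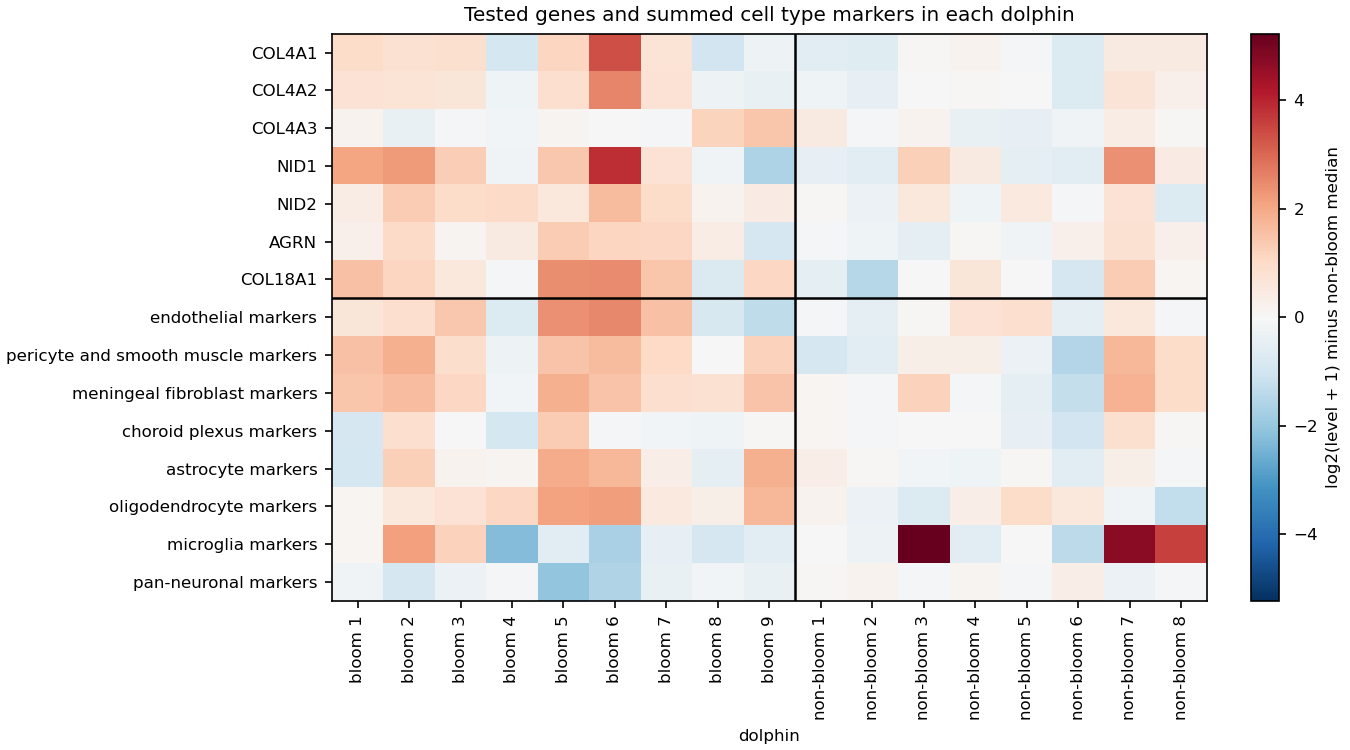
Colour gives log2(level + 1) minus the non-bloom median for the 7 tested genes and for the summed markers of 8 cell types (rows) in each dolphin (columns, bloom left of the line). Bloom 6 is high for COL4A1, COL4A2, NID1, COL18A1 and endothelial, astrocyte and oligodendrocyte markers and low for pan-neuronal markers; bloom 4 and bloom 8 are low for COL4A1 and endothelial markers.

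By Spearman's rho over 17 dolphins, the genes with the pattern most like COL4A1 among 12383 tested genes with a symbol and a mean of at least 1 included COL4A2 (0.936) and the ubiquitin ligase gene TRIM25 (0.924). For NID1 they were the purine receptor gene P2RY14 (0.966), PDGFRB (0.961), the receptor that marks pericytes, and AJUBA (0.958). For AGRN they were the ceramide synthase gene CERS4 (0.963), ADAMTSL2 (0.929) and TRAM2 (0.924). For COL18A1 they were DDIT4, an inhibitor of mTOR signalling induced by stress (0.936), LAMA2, a laminin chain (0.929), and RBPMS2 (0.922). The dolphins differ in season and library depth in these comparisons, and the part of either in the likeness was not tested. These values of rho are a description of the highest of many.

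The genes that build, bind and cut these proteins were read from 4 lists, whose counts stand against 4.47% of all genes higher and 4.69% lower. Of 18 tested genes of collagen IV assembly and crosslinking, 2 rose and 0 fell, with a median log2 change of 0.25, 15 positive and 3 negative. SERPINH1, the collagen chaperone HSP47 of the endoplasmic reticulum, had a mean of 41.0 ± 33.0 in bloom dolphins and 9.70 ± 5.53 in non-bloom dolphins (SD), a log2 change of 1.84 (SE 0.46, limma adjusted p = 0.0315). PLOD3, which hydroxylates and glycosylates collagen lysines, was at 38.2 ± 11.5 in bloom dolphins and 23.6 ± 3.84 in non-bloom dolphins, a log2 change of 0.63 (SE 0.18, adjusted p = 0.0422). The calls were lost in 9 and 11 of the 17 fits that left out 1 library. P3H1, a prolyl 3-hydroxylase, and P4HA1, a prolyl 4-hydroxylase subunit, were at 0.70 (SE 0.22, limma adjusted p = 0.0524) and 1.09 (SE 0.38, adjusted p = 0.0653) and passed by edgeR (adjusted p = 0.0297 and 0.0489). PXDN, the peroxidase that forms the bonds between collagen IV molecules, was at 0.21 (SE 0.20, limma adjusted p = 0.467).

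The list of receptors also holds subunits of laminin and vitronectin receptors. Of its 14 tested genes, 3 rose and 0 fell, against 4.47% of all genes higher and 4.69% lower, with a median log2 change of 0.60. The 3 that rose encode such laminin or vitronectin receptor subunits. The laminin receptor subunit ITGB4 was at 23.2 ± 3.43 in bloom dolphins and 14.2 ± 2.72 in non-bloom dolphins, a log2 change of 0.67 (SE 0.13, limma adjusted p = 0.0178), and its call was kept whichever library was left out. ITGA7, the partner of ITGB1 in a laminin receptor of muscle, rose by 1.18 (SE 0.27, adjusted p = 0.0296) and the vitronectin receptor subunit ITGB5 by 0.87 (SE 0.21, adjusted p = 0.0315), with the calls lost in 7 and 8 of 17 such fits. LRP4, the agrin receptor of muscle, was at 1.17 (SE 0.49, adjusted p = 0.104). DAG1, which encodes dystroglycan and binds agrin and laminin, was at 0.067 (SE 0.35, adjusted p = 0.904). MUSK, the kinase that agrin activates through LRP4, did not pass the filter, with means of 0.231 in bloom dolphins and 0.157 in non-bloom dolphins.

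Of 14 tested proteases and inhibitors, 1 rose and 1 fell, with a median log2 change of 0.19. MMP9, a collagen IV-cutting gelatinase that neutrophils also store, was at 0.387 ± 0.498 in bloom dolphins and 7.86 ± 12.5 in non-bloom dolphins (SD), a log2 change of -1.85 (SE 0.51, limma adjusted p = 0.0397). Its bloom mean was near the floor of 3 reads, and its non-bloom SD was larger than its non-bloom mean. BMP1, a procollagen protease, was at 15.5 ± 3.57 in bloom dolphins and 10.2 ± 1.86 in non-bloom dolphins, a log2 change of 0.55 (SE 0.15, adjusted p = 0.0397). The calls of MMP9 and BMP1 were lost in 11 and 12 of 17 such fits. The inhibitors TIMP2 and TIMP1 were at -0.50 (SE 0.18, adjusted p = 0.0729) and 1.12 (SE 0.41, adjusted p = 0.0749). PRSS12, the neurotrypsin that cleaves agrin, was at 0.032 (SE 0.29, adjusted p = 0.946). Of 11 tested laminin and perlecan genes 3 rose, LAMA3, LAMB2 and LAMA1, with a median log2 change of 0.72 and the calls lost in 2, 9 and 8 of 17 such fits.

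Without bloom 5, 6 and 9 the genes of the 4 lists that passed were PLOD3 and P3H1 for assembly, ITGB4 and ITGA7 among the receptors, and HSPG2, which encodes perlecan (limma adjusted p = 0.0497). SERPINH1, ITGB5, MMP9, BMP1, LAMA3, LAMB2 and LAMA1 did not pass there, with adjusted p from 0.0535 to 0.123.

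**Figure D5:**
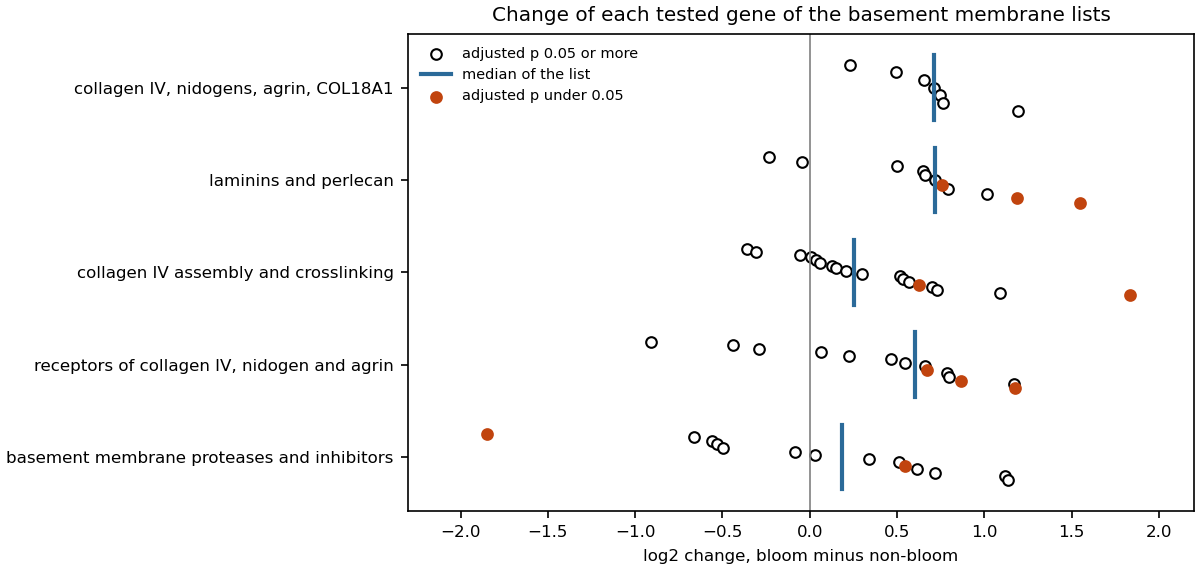
Log2 change, bloom minus non-bloom, of each tested gene (points) in 5 groups of basement membrane genes, filled where the limma adjusted p was under 0.05, with the median of each group as a bar. No gene of the top group is filled and all 7 lie right of 0; MMP9 at -1.85 is the only filled point left of 0.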

How the data were processed

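The authors deposited 1 normalised signal per gene and library; per the submitters' processing notes, reads were trimmed with Trim Galore 0.6.1 and aligned with STAR 2.5.2a. The sources used here do not name the counting tool, its use of strand, the genome build or the annotation. Nonzero values were whole multiples of the value of 1 read in each library (100% within 0.01, largest deviation 7.4e-05), and CPM recomputed with TMM scaling differed from the deposited signal by at most 7.51e-09 of its size. The closest libraries of a season differed far beyond sampling noise (chi-square of 17.0 per gene).

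Genes were kept by filterByExpr (minimum count 10, minimum total 15), 13548 in all. Season was the only term of limma-trend on log2(value + 1), bloom minus non-bloom, with Benjamini-Hochberg adjustment over all genes tested. Alternatives were edgeR and DESeq2 on recovered reads, 2 other scalings, 2 other filters, a pseudocount of 0.1, 2 marker covariates and leaving out libraries. The limma and edgeR fits were tested on simulated data with equal spread in both seasons and no outlying dolphin, unlike the data here. DESeq2, the covariate fits, the ratios and the correlations were not tested in that way. p-values measure the spread between dolphins. The tools were limma 3.58.1, edgeR 4.0.16 and DESeq2 1.42.0, run in R 4.3.3. All 10 genes are named whatever their values. From each list up to 4 genes with the smallest p are named, and PXDN, DAG1, MUSK, PRSS12, HSPG2, SLCO1A2, KCNJ8, SLC6A13, ERMN, MOG and SYT1 were added after their values were seen. The genes and lists were chosen with earlier results of these data known. Of the 3 genes most like COL4A1, 1 is not reported here.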

Additional observations from a re-analysis of the deposited data

Results flagged for a closer look

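A sample far from the others of its season was looked for in 28 sets of values, and 6 were found. The sets were the levels of the 10 genes, not on a log scale, and the 4 log2 ratios in each season. The rule is set to flag about 1 in 20 sets of normally distributed values. Several sets here are skewed or near 0, and some genes move together, so the count of 6 cannot be set against that rate. Bloom 6 stood apart in COL4A1, at 411.5 with the next bloom dolphin at 87.4, in COL4A2, at 305 with the next at 94.1, and in NID1, at 43.25 with the next at 13.3. The same library had the highest endothelial and oligodendrocyte marker sums of the series, 3201 and 19243, the third highest astrocyte sum, 8815, the second lowest pan-neuronal sum, 3607, and a mitochondrial share of 33.5%. Their part in these levels was not tested. Non-bloom 7 stood apart in NID1, at 14.89 with the next non-bloom dolphin at 6.27. Bloom 2 stood apart in COL4A5, at 0.1981, which is 3 reads, and non-bloom 4 in COL4A6, at 1.996, which is 32 reads.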

How the results depend on the processing

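The count of the 7 tested genes past the threshold was 0 in the main result and 4 with DESeq2 (3170 of 13548 genes called). It was 1 with relative log expression scaling (1337 of 13548), upper-quartile scaling (1220 of 13548) and a value of at least 1 in 8 libraries (1250 of 13178). With 1 library left out it was 0 to 2. It was 1 without bloom 1 (2895 of 13489 genes called). It was 2 without bloom 4 (2316 of 13525), bloom 8 (2690 of 13502) or bloom 9 (1118 of 13531). Of the 7 genes, 6 were tested with that value filter and without bloom 1, 5, 8 or 9. COL4A1 and NID1 reversed with the pan-neuronal covariate, at -0.14 and -0.15; the cause was not tested. The count over all genes, 1241, was 3170 with DESeq2, 560 with no low filter, 251 and 3 with the endothelial and pan-neuronal covariates, and 320 without bloom 5, 6 and 9. It was 61 to 2895 with 1 library left out, and over 1.5 times away without any of bloom 1, 2, 4, 5, 6, 7 and 8 and non-bloom 1, 2, 3, 5, 6, 7 and 8. Without bloom 5, 6 and 9 the ratio differences turned to 0.13 for COL4A2 to COL4A1, 0.030 for NID2 to NID1 and 0.19 for AGRN to COL4A1, and that of NID2 to NID1 was 0.24 with a pseudocount of 0.1. With 1 library left out these 3 ran from -0.16 to 0.037, from -0.30 to 0.23 and from -0.40 to 0.054, and that of COL18A1 to COL4A1 from 0.36 to 0.65. None of the ratios passed in any of these settings. The correlation of COL4A3 with COL4A4 rose to 0.741 without bloom 5, 6 and 9, that of COL4A5 with COL4A6 turned to -0.078 without the 2 animals farthest from the median, and that of NID1 with NID2 missed the threshold at r of 0.523 and 0.520 without those farthest and without bloom 5, 6 and 9, while rho passed at 0.586 and 0.582 (permutation adjusted p = 0.0494 and 0.0430). COL4A3 could be tested in 13 of 17 fits with 1 library left out. Depth limits COL4A3 to COL4A6 in all libraries and NID1 and NID2 in bloom 9. No paired analysis was possible because every dolphin was sampled in 1 season and the replicate numbers follow the order of deposition.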

Other observations

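The balance of COL4A2 to COL4A1 took its extreme values in the animals at the ends of the COL4A1 range. The log2 ratio was 1.06 in bloom 4 and 1.14 in bloom 8, the dolphins with the lowest COL4A1, and -0.43 in bloom 6, the dolphin with the highest; it lay between 0.11 and 0.69 in the other 14. Bloom 4 and bloom 8 also had the lowest mitochondrial shares of the series, 4.63% and 1.47%. A low COL4A1 value raises this ratio and a high one lowers it by construction, and the outlier search above flagged no ratio. These patterns were seen after the values were known and were not tested.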
